A study of Mus musculus with 6 samples.

Results

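The genes described here are 43 genes of DNA double-strand break repair and the Fanconi anaemia pathway, measured in the hearts of tumour-bearing mice treated with doxorubicin (Dox) and ginsenoside Rh2. They were chosen by name, as a list of gene symbols, with earlier results of these data known. All 43 were found among the 45777 genes of the expression table, and all 43 passed the minimum of a mean of 10 counts over the 6 libraries, with the lowest mean, 29.8 counts, in Xrcc3. The hearts came from female BALB/c nude (CAnN.Cg-Foxn1nu/Crl) animals, labelled as 6 weeks old, every one of which carried a subcutaneous tumour of the human breast cancer line MDA-MB-231. Nude mice lack a working thymus and the T cells that mature there. The 6 conditions were a vehicle group (Control), Rh2 at 20 mg/kg (Rh2-20), Rh2 at 30 mg/kg (Rh2-30), Dox at 2 mg/kg per injection up to a cumulative 22 mg/kg (Dox), and each Rh2 dose together with that Dox course (Rh2-20 + Dox and Rh2-30 + Dox), all over 3 weeks. Each condition had 1 library, and each library was RNA pooled from the hearts of 5 mice, so no condition had a replicate and the spread between animals of a group was not measured.

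Doxorubicin is an anthracycline that traps topoisomerase II on DNA and leaves broken ends, and its use is limited by damage to the heart. Cells mend such breaks by homologous recombination, in which an end is cut back and an intact sister chromatid is copied, or by non-homologous end joining, which ligates the ends directly. The Fanconi proteins unhook crosslinks between the strands and pass the broken intermediate to recombination. Many recombination and Fanconi genes are known for high transcription in S and G2 phase, when a sister chromatid exists, whereas end joining, ATM and ATR genes are transcribed in resting cells too. Adult cardiomyocytes are mostly out of the cell cycle, and dividing cells in the heart are mainly of other types.

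Read counts summed to 86164411 to 90621002 per library. The cardiomyocyte markers Myh6, Tnnt2, Actc1, Ryr2, Myl2 and Tnni3 were high throughout, with a summed level of 18908 to 25865 CPM (counts scaled to library size by the TMM method), as the label heart implies. The libraries also differed in markers of other cells. The adipocyte markers Adipoq, Plin1 and Ucp1 summed to 120.0 CPM in Rh2-30 and to 0.253 to 10.5 CPM in the other libraries. Hba-a1, a haemoglobin gene of red cells, had 273474 counts in Dox and 49673 in Rh2-30 + Dox, against 77286 to 100982 in the libraries without Dox. Such bulk values cannot tell fewer cells of a type apart from less RNA per cell.

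Per length, the 43 genes spanned a wide range of levels, and the most abundant were Parp2 and some of the genes that sense breaks or join ends. Mean FPKM (fragments scaled to transcript length and library size) over the 6 libraries ran from 0.0828 in Xrcc3, a strand exchange gene, to 20.9 in Parp2, which binds nicked DNA and builds poly-ADP-ribose. Next to Parp2 stood the kinases Atr (17.4 FPKM) and Prkdc (15.4 FPKM), then Nbn (13.4 FPKM) of the MRE11 complex. The 15 members known to peak in S or G2 had a median of 0.698 FPKM and none was above 2.88 FPKM, the level of Brca2. The other 28 had a median of 5.87 FPKM. The median of all 18328 genes tested was 3.12 FPKM.

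**Figure D1:**
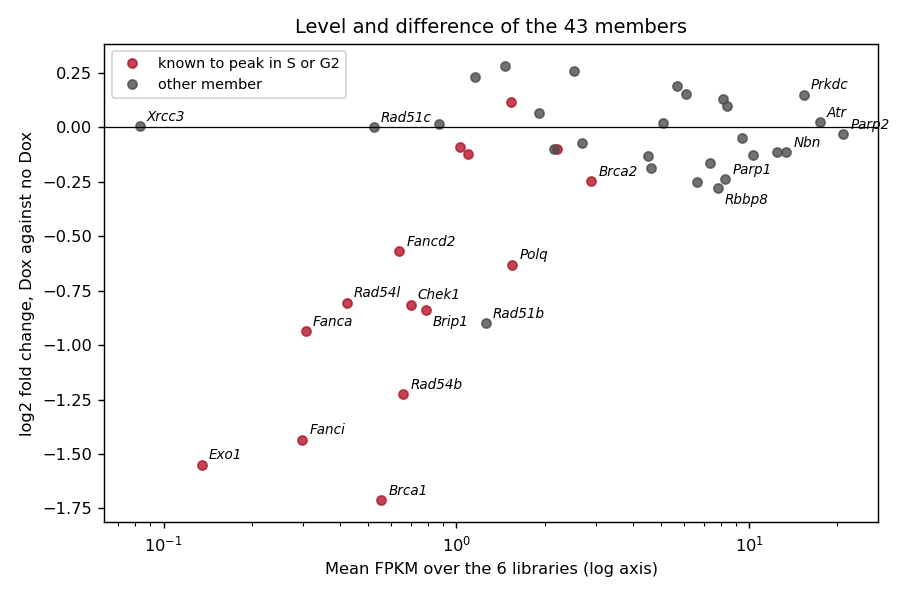
Mean FPKM over the 6 libraries (x axis, log scale) against the log2 fold change with Dox against without (y axis) for the 43 genes, with members known to peak in S or G2 in red and the others in grey. The members that lie more than 0.5 below 0 on the y axis all have a mean of 1.55 FPKM or less, while Parp2, Atr and Prkdc, at 15.4 to 20.9 FPKM, lie within 0.15 of 0.

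The 3 libraries with Dox were set against the 3 without, since each side held Rh2 at 0, 20 and 30 mg/kg. A group of members, mostly recombination and Fanconi genes but also the checkpoint gene Chek1, was lower in the hearts given Dox. No member was higher beyond its spread. Brca1 was 69.5% lower in the mean, Exo1 65.9%, Fanci 63.0%, Rad54b 57.3% and Brip1 44.1%. No member passed an adjusted p of 0.05 in edgeR's quasi-likelihood test over all 18328 genes (5 genes called, 0.0273%), and the smallest adjusted p among the members was 0.157, for Rad54b. At an unadjusted p under 0.05, 13 members were lower and 0 higher, where 5.91% of all genes were lower and 4.2% higher. The same 13 had all 3 libraries with Dox below all 3 without, and no member had them all above, against 9.16% and 7.85% of all genes. DESeq2's Wald test of the same contrast gave an adjusted p under 0.05 for 9 members, all lower, among 425 genes in all. The median log2 fold change was -0.11 over the 43 members and -0.01 over all genes tested. The spread in this fit is that between libraries of different Rh2 dose, so its p-values speak of these 6 pooled libraries.

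**Figure D2:**
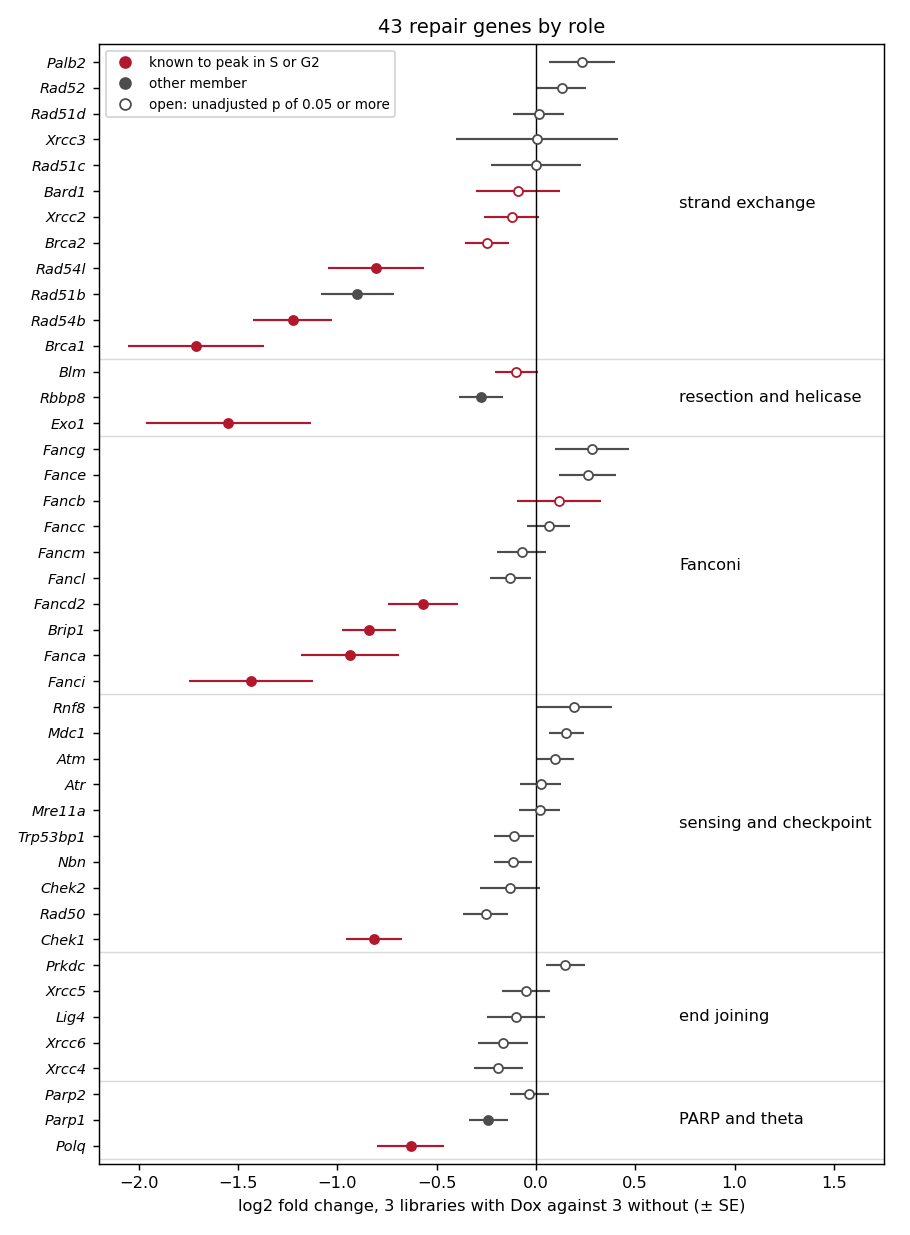
Log2 fold change with Dox against without (x axis, points with SE bars, 3 libraries against 3) for the 43 genes, grouped by role, with red for members known to peak in S or G2 and filled points for an unadjusted p under 0.05. All 13 filled points lie below 0, 10 of them red, and none of the 5 end joining genes is filled.

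The start regions of 4 of these genes are shown because they had the smallest p among the members whose promoter could be read, and because genes of the cell cycle are often described through short elements near their start. Each runs from 250 bases before to 50 after a RefSeq transcript start on GRCm38.p6, 5′ to 3′ on the gene's strand, and capitals mark matches to the E2F element (TTCCCGC or TTGGCGC), the CHR element (TTTGAA) or the CCAAT box (CCAAT), on either strand. Brip1 lies at chr11:86201144-86201443 on the minus strand, Chek1 at chr9:36726609-36726908 on the minus strand, Brca1 at chr11:101551906-101552205 on the minus strand and Rad51b at chr12:79297101-79297400 on the plus strand.
Brip1: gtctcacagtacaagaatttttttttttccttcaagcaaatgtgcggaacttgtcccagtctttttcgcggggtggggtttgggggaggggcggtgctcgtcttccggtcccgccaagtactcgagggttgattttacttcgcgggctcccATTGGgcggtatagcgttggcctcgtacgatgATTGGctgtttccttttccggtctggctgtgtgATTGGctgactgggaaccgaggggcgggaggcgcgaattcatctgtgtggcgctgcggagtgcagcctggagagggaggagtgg
Chek1: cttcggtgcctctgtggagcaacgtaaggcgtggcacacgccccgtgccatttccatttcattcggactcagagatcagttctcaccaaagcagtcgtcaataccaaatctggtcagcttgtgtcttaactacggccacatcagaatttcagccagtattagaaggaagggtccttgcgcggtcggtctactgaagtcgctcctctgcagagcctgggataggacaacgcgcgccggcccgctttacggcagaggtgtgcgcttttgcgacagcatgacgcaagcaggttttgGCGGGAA
Brca1: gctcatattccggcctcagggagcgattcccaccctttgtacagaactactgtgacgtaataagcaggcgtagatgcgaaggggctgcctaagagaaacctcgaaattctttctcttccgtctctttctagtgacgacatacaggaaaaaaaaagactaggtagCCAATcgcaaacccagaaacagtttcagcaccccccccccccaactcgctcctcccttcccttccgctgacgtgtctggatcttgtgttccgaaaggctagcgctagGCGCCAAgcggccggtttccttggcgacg
Rad51b: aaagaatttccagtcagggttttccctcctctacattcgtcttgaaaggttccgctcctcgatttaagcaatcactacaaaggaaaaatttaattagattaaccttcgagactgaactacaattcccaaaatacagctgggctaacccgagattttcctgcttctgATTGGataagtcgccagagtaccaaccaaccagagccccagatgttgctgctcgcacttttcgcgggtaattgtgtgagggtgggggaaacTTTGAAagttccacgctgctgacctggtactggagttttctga
Brip1 held 3 CCAAT boxes, at 99, 67 and 34 bases before the start. Chek1 ended in an E2F match, 43 bases into the transcript. Brca1 joined a CCAAT box 86 bases before the start to an E2F match 21 bases after it, and Rad51b held a CCAAT box and a CHR match but no E2F match in this window. RefSeq gives Rad51b another start, whose window (chr12:79297032-79297331) held that CCAAT box and no CHR or E2F match. Promoters were at hand for 34 of the 43 members, and 17 of the 34 held an E2F match, whereas 6.81% of all 32851 RefSeq promoters did. Of the 9 lower members among the 34, 4 held one (Brca1, Chek1, Fanci and Polq). Counted in the same way, CCAAT boxes stood in 19 of the 34 genes and in 37.4% of all promoters, and CHR matches in 4 of the 34 genes and in 17.9% of all promoters. These matches are letters in a window, shared by members that were lower and by members such as Atm, Rad52 and Xrcc6 that were not separated between the groups.

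Among the 12 strand exchange genes, 4 were lower at the unadjusted threshold (Brca1, Rad54b, Rad51b and Rad54l), none was higher, and the median log2 fold change was -0.11. Brca1 (chr11:101488761-101551955), the ubiquitin ligase that licenses end resection and brings PALB2 and BRCA2 to breaks, had the largest difference of all 43 members. It stood at 5.74 CPM in Control, 6.51 in Rh2-20 and 8.23 in Rh2-30, and at 2.33 in Dox, 2.80 in Rh2-20 + Dox and 1.11 in Rh2-30 + Dox. Every library with Dox was lower than every library without, and the Rh2-30 dose held both the highest and the lowest value. The log2 fold change was -1.71 ± 0.34 (SE, adjusted p = 0.216, edgeR).

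Rad54b (chr4:11558920-11615808) and Rad54l are SWI/SNF-type motors that act in strand invasion. Rad54b measured 3.11, 3.92 and 3.49 CPM in Control, Rh2-20 and Rh2-30 against 1.62, 1.65 and 1.23 CPM in Dox, Rh2-20 + Dox and Rh2-30 + Dox. The groups were far apart relative to their spread, 3.51 ± 0.41 against 1.499 ± 0.23 CPM (SD, n = 3 each), and the log2 fold change was -1.23 ± 0.20. Rad54l was closer, at 2.62, 3.15 and 3.45 CPM without Dox and 2.00, 2.02 and 1.254 CPM with it, a log2 fold change of -0.81 ± 0.24 (adjusted p = 0.356, edgeR). Its Dox and Rh2-20 + Dox libraries were nearly alike and Rh2-30 + Dox was the lowest.

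Rad51b, which acts in strand exchange with its partners, was the member outside the S and G2 group with the largest difference. It stood at 3.88, 3.78 and 4.66 CPM without Dox and at 2.11, 2.58 and 1.92 CPM with it, a log2 fold change of -0.90 ± 0.18 (adjusted p = 0.228, edgeR). The related genes did not share this. Rad51c, Rad51d and Xrcc3 had log2 fold changes of 0.00 to 0.01 and Xrcc2 of -0.12, each with overlapping groups, and Xrcc3 rested on 20 to 39 counts per library. Brca2, which acts on resected ends, was at -0.25 ± 0.11, its partner Palb2 at 0.23 ± 0.17, and Bard1, the partner of BRCA1, at -0.09 ± 0.21. None of these 3 passed the unadjusted threshold. Rad52, an annealing protein and the most abundant of this role at 8.15 FPKM, measured 25.1, 21.2 and 18.8 CPM without Dox and 25.4, 22.5 and 23.3 CPM with it. These values overlapped between the groups.

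Of the 3 resection and helicase genes, 2 were lower. Exo1 (chr1:175880768-175911396), the exonuclease that resects ends over long stretches, measured 1.09, 1.22 and 1.44 CPM without Dox and 0.440, 0.633 and 0.207 CPM with it. The highest library with Dox was below the lowest without, and the log2 fold change was -1.55 ± 0.42 (adjusted p = 0.332, edgeR), but Exo1 was scarce, with 18 counts in Rh2-30 + Dox and 137 in Rh2-30. Rbbp8, which starts resection with the MRE11 complex, was the most abundant of the role at 7.80 FPKM and was lower by a small margin. It stood at 38.3, 41.9 and 38.9 CPM without Dox and at 28.03, 35.1 and 35.2 CPM with it, a log2 fold change of -0.28 ± 0.11. Blm, the helicase that dissolves crossed strands, was at -0.10 ± 0.11 and its groups overlapped.

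In the Fanconi pathway the 2 members of the clamp that marks a crosslink, a helicase and 1 core protein were lower, and the other core genes were not. Fanci (chr7:79392312-79450266), which forms the clamp with FANCD2, measured 2.45, 2.23 and 3.11 CPM without Dox and 1.21, 1.08 and 0.587 CPM with it (log2 fold change -1.43 ± 0.31, adjusted p = 0.245, edgeR). Its values with Dox were all lower, with Rh2-30 + Dox lowest. Fancd2 measured 5.56, 4.498 and 5.68 CPM without Dox and 4.19, 3.16 and 3.26 CPM with it, a log2 fold change of -0.57 ± 0.18 (adjusted p = 0.367, edgeR). The margin was narrow, as Rh2-20 without Dox and the Dox library differed by little.

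Brip1 (chr11:86058136-86201215), the helicase that binds BRCA1, was separated by a wide margin. It stood at 8.46, 8.57 and 9.73 CPM without Dox and at 5.44, 5.23 and 4.29 CPM with it, a log2 fold change of -0.84 ± 0.14 (adjusted p = 0.159, edgeR). Fanca, a subunit of the core ubiquitin ligase, measured 2.90, 2.75 and 3.20 CPM without Dox and 2.058, 1.41 and 1.16 CPM with it (log2 fold change -0.94 ± 0.25, adjusted p = 0.327, edgeR). The lowest value without Dox was above the highest with it. The core subunits Fancb, Fancc, Fance and Fancg had log2 fold changes of 0.12, 0.06, 0.26 and 0.28, and the translocase Fancm of -0.07, with overlapping groups. Fancl, the ligase subunit that attaches ubiquitin to the clamp and the most abundant Fanconi gene at 10.3 FPKM, measured 24.6, 24.6 and 23.7 CPM without Dox and 20.9, 25.2 and 20.7 CPM with it. The Rh2-20 + Dox library was the highest of the 6, so the groups overlapped.

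Of the 10 sensing and checkpoint genes, Chek1 alone passed the unadjusted threshold. Chek1 (chr9:36708482-36726658), the kinase that ATR activates to hold cells in S and G2, showed the least spread within groups, relative to the mean, of the 13 lower members. It measured 4.01, 3.86 and 3.92 CPM without Dox and 2.33, 2.14 and 2.23 CPM with it, or 3.93 ± 0.07 against 2.23 ± 0.10 CPM (SD, n = 3 each). The log2 fold change was -0.82 ± 0.14 (adjusted p = 0.175, edgeR). Its upstream kinase Atr, at 205, 199 and 166 CPM without Dox and 185, 193 and 201 CPM with it, was not separated, and its log2 fold change was 0.02 ± 0.10. Atm, the kinase called to broken ends, was at 0.10 ± 0.10 and its target Chek2 at -0.13 ± 0.15. In the MRE11 complex, which tethers ends, Mre11a was at 0.02, Nbn at -0.12 and Rad50 at -0.25 ± 0.11 (unadjusted p = 0.0577, edgeR). The chromatin adaptors Mdc1 and Trp53bp1 and the ubiquitin ligase Rnf8 were at 0.15, -0.11 and 0.19. The groups of these genes overlapped.

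No end joining gene passed the unadjusted threshold in either direction. Prkdc, the catalytic subunit of DNA-PK and the most abundant of the role, measured 257, 226 and 213 CPM without Dox and 266, 244 and 261 CPM with it, a log2 fold change of 0.15 ± 0.10. The Ku subunits Xrcc5 and Xrcc6, which ring the ends, were at -0.05 ± 0.12 and -0.17 ± 0.13, and Xrcc4 and Lig4, which seal them, at -0.19 ± 0.12 and -0.10 ± 0.15. A change of the size of Brca1 or Exo1 would lie far outside these errors.

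Of the PARP and polymerase theta genes, 2 of 3 were lower. Polq, the polymerase of microhomology-mediated joining, measured 23.3, 23.1 and 15.4 CPM without Dox and 13.4, 13.9 and 12.6 CPM with it (log2 fold change -0.63 ± 0.17, adjusted p = 0.328, edgeR). Rh2-30 was much nearer to the libraries with Dox than to Control or Rh2-20, so the separation rested on a narrow gap there. Parp1, which signals strand breaks with poly-ADP-ribose, stood at 41.2, 45.1 and 41.6 CPM without Dox and at 33.6, 34.5 and 40.4 CPM with it, a log2 fold change of -0.24 ± 0.10. Its Rh2-30 + Dox library was only just under Control. Parp2 was not separated, at 57.0, 49.3 and 46.5 CPM without Dox and 51.1, 48.7 and 49.7 CPM with it.

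**Figure D3:**
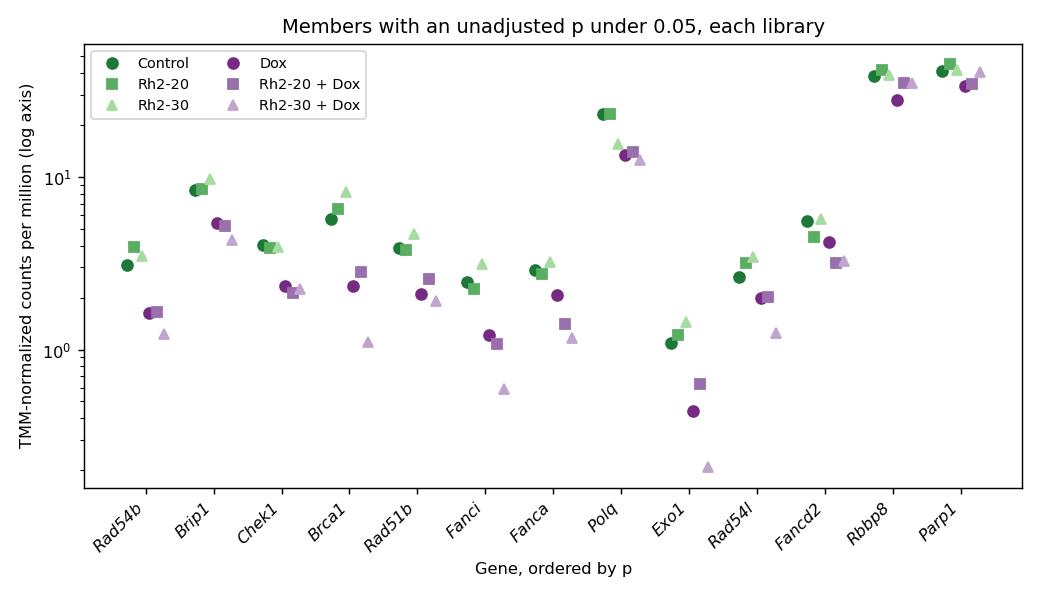
TMM-normalised CPM (y axis, log scale) of the 13 members with an unadjusted p under 0.05 in each library, green without Dox and purple with it, ordered by p; circles are Rh2 0, squares 20 and triangles 30 mg/kg. All purple points lie below all green points of the same gene, and in Brca1, Exo1 and Fanci the Rh2-30 + Dox triangle lies lowest, at 1.11, 0.207 and 0.587 CPM.

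The members were also sorted by the cell cycle, in a grouping chosen with earlier results of these data known. Of the 15 members known to peak in S or G2, 10 were lower at the unadjusted threshold and the median log2 fold change was -0.81. The exceptions were Brca2, Bard1, Xrcc2, Blm and Fancb, from -0.25 to 0.12. Of the other 28 members, 3 were lower (Rad51b, Rbbp8 and Parp1), and their median was -0.02. Leaving out any 1 library moved the median of the S and G2 members between -0.85 and -0.61, the latter without Rh2-30 + Dox. Without Rh2-30, the library with adipocyte transcripts, that median was -0.76. In that fit 13 members were lower at the unadjusted threshold, 11 of them among the 13 of the full fit.

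Lists of other genes were read in the same fit for comparison. Of 72 other repair genes (mostly further break repair, Fanconi-associated and checkpoint genes), 7 were lower and 3 higher, with a median log2 fold change of 0.03. The 5 with the smallest p were all lower and included Rad51ap1 (-0.97), a cofactor of strand exchange, the nuclease subunit Eme1 (-1.93), and Clspn (-1.32) and Topbp1 (-0.41), which activate CHK1 and ATR. Of 43 replication genes, 15 were lower and 0 higher, with a median of -0.18, led by Dscc1 (-1.95), a clamp loader subunit, and Pole (-0.63), the leading-strand polymerase. Of 32 mitosis genes, 29 were lower and 0 higher, with a median of -1.72. Cenpf, a kinetochore protein, and Nek2, a centrosome kinase, passed the adjusted threshold (-1.24, adjusted p = 0.0381, and -3.13, adjusted p = 0.0401, edgeR). Of 23 p53 target genes, 1 was lower and 4 higher (Fas 0.69, Ddb2 0.48, Trp53inp1 0.50 and Sesn1 0.47), with a median of 0.11.

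Markers of cells other than cardiomyocytes differed between libraries, not all in the direction of the repair genes. The fibroblast markers Pdgfra, Col1a1, Dcn, Tcf21 and Lum summed to 779, 818 and 1142 CPM in Control, Rh2-20 and Rh2-30. They summed to 950, 1034 and 705 CPM in Dox, Rh2-20 + Dox and Rh2-30 + Dox. That sum was thus higher with Dox at Rh2 0 and 20 mg/kg and lower at 30 mg/kg. Of these 5 markers, 1 was lower at the unadjusted threshold. The endothelial markers Pecam1, Cdh5, Kdr and Tie1 summed to 1254 to 1384 CPM without Dox and 1220 to 1362 CPM with it. Of these 4, 1 was lower at the unadjusted threshold. The macrophage markers Adgre1, Csf1r, Cd68, Mrc1 and C1qa summed to 259 to 374 CPM without Dox and 184 to 297 CPM with it, with Rh2-30 the highest and Rh2-30 + Dox the lowest library, and 1 of the 5 was lower at the unadjusted threshold. The B cell marker Cd79b had 59 to 171 counts without Dox and 34 to 57 with it, while Ms4a1 (16 to 174 against 5 to 25 counts) and Cd79a (21 to 165 against 24 to 54 counts) overlapped between the groups. The T cell markers Cd3e, Cd3d, Cd3g and Lck were scarce, with sums of 0.844 to 1.45 CPM without Dox and 1.16 to 3.27 CPM with it. Cd3e was higher with Dox at the unadjusted threshold, opposite to the repair genes, with 80, 55 and 38 counts without Dox and 220, 97 and 189 with it, while Cd3d had 0 counts in every library. The part of these cells, and of the dividing cells that carry the mitosis genes, in the lower levels of the repair genes was not tested.

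**Figure D4:**
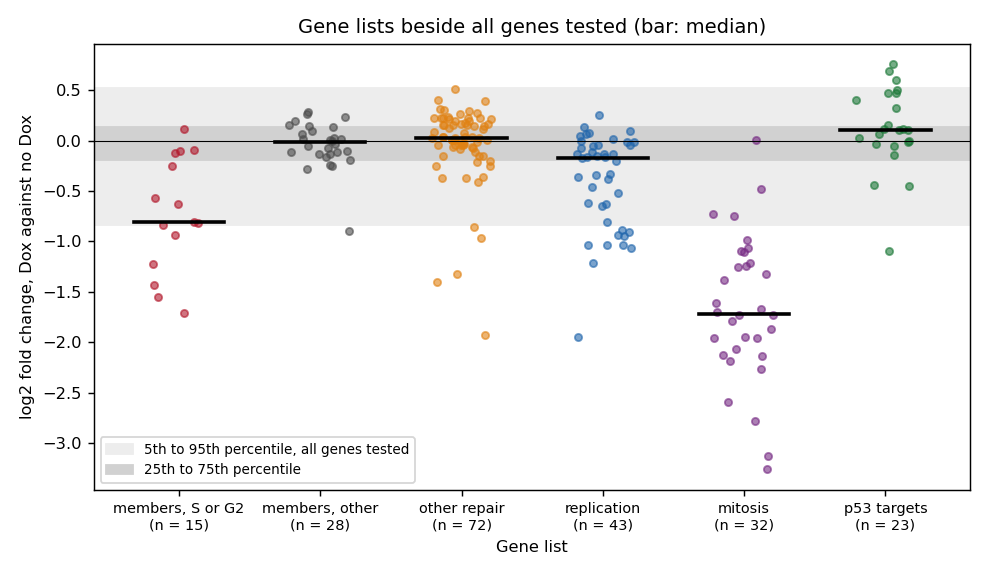
Log2 fold change with Dox against without (y axis) of each gene in 6 lists (x axis), with a black bar at each list's median, over grey bands for the 5th to 95th and 25th to 75th percentiles of all genes tested. The S and G2 members (median -0.81) lie between the mitosis list (-1.72) and the replication list (-0.18), and the other members (-0.02) lie near 0.

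The study asked what Rh2 adds to Dox, and its cut-offs were a fold of at least 2 with a raw p under 0.05 between libraries. With 1 library per condition such a call compares 2 libraries and not 2 conditions, and all 5 comparisons with Control share that library. No member was called in Rh2-20 against Control, where 2.57% of all genes were called higher and 2.24% lower, or in Rh2-30, where 7.68% were higher and 1.36% lower. In Dox, Brca1, Exo1 and Fanci were called lower (3 of 43, against 2.92% of all genes lower and 4.7% higher). In Rh2-20 + Dox they were Brca1, Fanca and Fanci (3 of 43, against 3.1% lower and 4.4% higher), and in Rh2-30 + Dox Brca1, Exo1, Fanci, Rad54b, Fanca, Rad54l and Rad51b (7 of 43, against 6.1% lower and 3.29% higher). No member was called higher in any of these 5 comparisons.

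Relative to Control, the log2 difference of Brca1 was -1.30 in Dox (95% interval -2.01 to -0.58, counting error plus the common dispersion), -1.03 in Rh2-20 + Dox (-1.74 to -0.32) and -2.37 in Rh2-30 + Dox (-3.12 to -1.63). Exo1 was at -1.30, -0.78 and -2.37 in the same order, and Fanci at -1.01, -1.18 and -2.05. For Rh2 alone the intervals of all 43 members included 0 at both doses, and Brca1 was at 0.18 (-0.52 to 0.88) in Rh2-20 and 0.52 (-0.18 to 1.21) in Rh2-30. The median over the 15 S and G2 members was 0.03 in Rh2-20, 0.14 in Rh2-30, -0.50 in Dox, -0.74 in Rh2-20 + Dox and -0.88 in Rh2-30 + Dox. Over the other 28 members it stayed between -0.11 and -0.01 in all 5.

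Against the Dox library directly, Rh2-20 + Dox had no called member, where 2.36% of all genes were called higher and 2.83% lower. Rh2-30 + Dox had 2, both lower (against 6.56% of all genes lower and 2.22% higher): Brca1 at -1.07 (-1.83 to -0.31) and Fanci at -1.04 (-1.87 to -0.21). No member was called higher than in Dox in either combination, and none had an interval wholly above 0 in either. Of the 15 S and G2 members, 14 had a value below 0 in Rh2-30 + Dox against Dox, with a median of -0.36, and 9 did in Rh2-20 + Dox, with a median of -0.06. Over all genes the shares below 0 were 53.2% and 49.3%.

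At equal Rh2 dose, the library with Dox could be set against the one without in 3 pairs that share no library. In the pair without Rh2 3 members were called lower, as given above. At Rh2 20 mg/kg they were Brca1, Rad54b and Fanci (3 of 43, against 2.37% of all genes lower and 3.38% higher). At Rh2 30 mg/kg there were 8, namely Brca1, Exo1, Fanci, Rad54b, Fanca, Rad54l, Rad51b and Brip1, where 11.5% of all genes were called lower and 2.11% higher. The median of the S and G2 members was -0.50, -0.71 and -0.81 in the 3 pairs. Of the 43 members, 16 were lower in all 3 pairs, 11 of them S and G2 members, and 7 were higher in all 3, none of them S and G2 members. Over all genes the shares were 17.6% and 16%. A likelihood ratio at the common dispersion found the effect of Dox at 20 mg/kg to differ from that without Rh2 in 1 member (Xrcc3), against 6.26% of all genes, and that at 30 mg/kg in 6, against 15.3%.

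**Figure D5:**
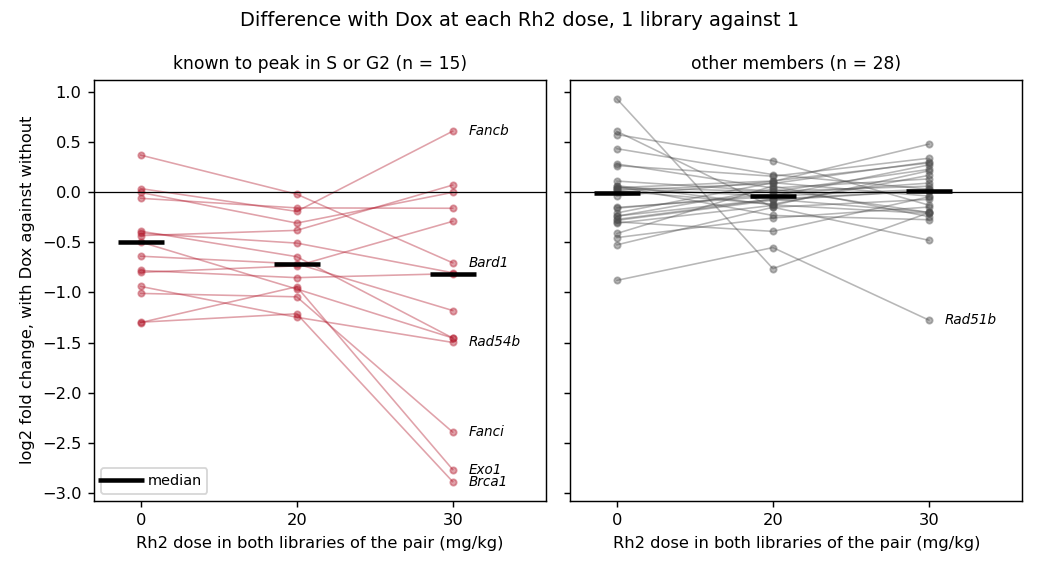
Log2 fold change of the library with Dox against the one without at Rh2 0, 20 and 30 mg/kg (x axis), 1 library against 1, with a line for each gene and a black bar for the median, S and G2 members on the left and other members on the right. The medians on the left are -0.50, -0.71 and -0.81, and Brca1, Exo1 and Fanci reach their lowest values at 30 mg/kg.

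The lowest of the 6 libraries was Rh2-30 + Dox for 10 of the 15 S and G2 members (66.7%) and for 23.1% of all genes, and the highest was Rh2-30 for 7 of them (46.7%) and for 26.1% of all genes. These are the libraries with the lowest and the highest summed macrophage, adipocyte, fibroblast and B cell markers. The cardiomyocyte markers ran the other way, at 25865 CPM in Rh2-30 + Dox and 18908 CPM in Rh2-30. Brca1 held both places, with 780 counts in Rh2-30 and 96 in Rh2-30 + Dox.

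For Rh2 itself, each dose (2 libraries) was compared with no Rh2 (2 libraries) in a fit that also held Dox, with 2 residual degrees of freedom. No member had an adjusted p under 0.05 at either dose in edgeR's quasi-likelihood test or in DESeq2's Wald test, where edgeR called 0% of all genes and DESeq2 called 24 genes at 20 mg/kg and 91 at 30 mg/kg. At an unadjusted p under 0.05 1 member was higher at each dose and none was lower, against 1.43% of all genes higher and 1.71% lower at 20 mg/kg, and 3.33% higher and 3.97% lower at 30 mg/kg. They were Rnf8 at 20 mg/kg, with a log2 difference of 0.49 ± 0.16, and Xrcc6 at 30 mg/kg, with 0.32 ± 0.11. The median over the members was -0.03 at 20 mg/kg and -0.11 at 30 mg/kg.

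Several members share their locus with another gene. On GRCm38.p6, 12 of the 43 overlap a protein-coding gene, among them Rad54b with Fsbp, Fanci with Polg, Fanca with Zfp276, Rad54l with Lrrc41 and Fancd2 with Fancd2os. Whether the counting used strand is not given in the sources used here, so reads over a shared stretch may belong to either gene. Brca1, Exo1, Brip1, Chek1, Rad51b, Polq, Rbbp8 and Parp1 overlap no other protein-coding gene.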

How the data were processed

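RNA from pooled hearts was captured (SureSelect) and sequenced. Per the labels and the methods of the study, the authors trimmed reads with Trimmomatic, aligned them to mm10 with HISAT2 2.1.0 and quantified genes with StringTie 2.1.3b. The authors deposited whole-number read counts per gene, not normalized, beside FPKM values (fragments scaled to transcript length and library size). The deposited TPM values were not used. The values of some genes are not reported here. Libraries held 86164411 to 90621002 counts, and the common dispersion sets a 95% interval of at least 0.67 to either side on the log2 scale between 2 libraries.

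The 43 members and all gene lists were chosen with earlier results of these data known. The 18328 genes that averaged 10 or more counts were tested in R 4.3.3. Groups were the 3 libraries with Dox and the 3 without, compared with edgeR 4.0.16 (TMM, quasi-likelihood test, two-sided, Benjamini-Hochberg over all genes). Comparisons of single libraries used edgeR's exact test with a common dispersion of 0.0285 from all libraries as 1 group, a fold of at least 2 and a raw p under 0.05, with log2 values from a prior count of 0.5. The steps were tested on simulated data.

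Values per library are given for members with an unadjusted p under 0.05, separated by a fold of at least 1.25, called against Control, or highest in FPKM in their role; up to 5 genes of other lists, those with the smallest p, are named. Bard1, Rad51c, Xrcc3, Rnf8, Xrcc6 and the remaining members are described by fitted values. Alternatives were DESeq2 1.42.0 size factors and Wald test, other filters, Rh2 dose as a term, each library left out, limma 3.58.1 on log2 of FPKM plus 0.1 or 1, a biological coefficient of variation of 0.1 or 0.4, and a prior count of 2. The pairs at equal Rh2 dose and the alternatives of the S and G2 median were added after seeing the data. Plots used matplotlib 3.10.9 (Python 3.11.15).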

Additional observations from a re-analysis of the deposited data

Results flagged for a closer look

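The effect of Dox differed between Rh2 doses for 7 members, by a likelihood ratio at the common dispersion with 4 libraries in each comparison, which share the Control and Dox libraries. It compares libraries and not conditions. The same criterion took 6.26% of all genes at 20 mg/kg and 15.3% at 30 mg/kg, beside 1 and 6 of the 43 members. Members were thus taken no more often than genes at large. Brca1 at 30 mg/kg was the only one of the 7 with an adjusted p under 0.05 over all genes (adjusted p = 0.0319, edgeR's likelihood ratio test), in a comparison with no replicate libraries.

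At 30 mg/kg the log2 effect of Dox minus that without Rh2 was -1.59 for Brca1, from -1.30 to -2.89, -1.39 for Fanci, from -1.01 to -2.40, and -1.47 for Exo1, from -1.30 to -2.77. For Rad54l it was -1.07, from -0.39 to -1.46. In these 4 genes the library with Dox was lower at both doses.

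Bard1 and Rad51c instead changed sign. The difference was -1.08 for Bard1, from 0.37 without Rh2 to -0.70 at 30 mg/kg, and -1.09 for Rad51c, from 0.61 to -0.48. At 20 mg/kg Xrcc3 differed by -1.70, from 0.93 to -0.76, on 20 to 39 counts per library.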

How the results depend on the processing

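No member was called in edgeR under other size factors, filters, Rh2 dose as a replicate block, limma on FPKM, or with any library left out. With each library left out, 11 to 15 members had an unadjusted p under 0.05, against 8.07% to 9.17% of all genes in either direction. Of these members, 11 to 13 were among the 13 named. Without Rh2-30 + Dox 1 of the 15 was higher. DESeq2's Wald test called 9. The cause was not tested. With Rh2 dose as a block 0 members were called and 12 had an unadjusted p under 0.05, against 8.72% of all genes. Same-dose libraries did not deviate together (correlations -0.276 to -0.00129), so the doses were not taken as pairs.

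The S and G2 median was -0.50 in the pair without Rh2, -0.26 on FPKM plus 1, where the added 1 exceeds most of these levels, and -0.85 to -0.61 with each library left out. A biological coefficient of variation of 0.4 left 0 members called against Control in Dox, 0 in Rh2-20 + Dox and 3 in Rh2-30 + Dox, and 0 in Rh2-30 + Dox against Dox. The share of all genes called at that setting was not taken.

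Of the values of 18 named genes under the alternatives, 236 kept their direction and side of the threshold and 9 passed it under DESeq2. Sign changes were limited to values near 0, namely Rad52 at -0.029 on FPKM plus 0.1 and -0.027 on FPKM plus 1, Atr at -0.044 and -0.042 on the same scales, and with a library left out Atr from -0.051 (without Rh2-30) to 0.082 and Parp2 from -0.082 to 0.055 (without Control). Atr was also at -0.0066 without Rh2-30 + Dox. Exo1 had the fewest counts of the 13 lower members, 18 in its lowest library, and no condition had a replicate library.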

Other observations

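Counts and FPKM ran apart for some members. Rad54l had 218 counts in Control and 284 in Rh2-20, but 0.3502 and 0.699 FPKM. Rad52 was at 0.13 on the log2 scale with Dox from counts and at -0.03 from FPKM plus 0.1, while its Control library stood highest in FPKM, at 9.89, and its Dox library highest in counts, at 2136. The cause was not tested.

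Rnf8 passed no adjusted threshold for Rh2. It had 1087 counts in Control and 1070 in Dox, against 1572 in Rh2-20, 1726 in Rh2-20 + Dox and 1524 in Rh2-30 + Dox, with Rh2-30 alone at 1190.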
